A study of Homo sapiens with 12 samples.

Results

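Cadherins and protocadherins are the calcium-dependent adhesion molecules that hold neighbouring cells together. By a rule on gene symbols, 101 of the 19974 protein-coding genes examined were counted as members. Other genes of the cadherin superfamily, such as FAT1 and CDHR1, fell outside this rule. Members were taken by gene symbol from the RefSeq gene table, on the autosomes: 23 genes named CDH and a number, 10 non-clustered protocadherins (PCDH and a number), the clustered protocadherins (15 PCDHA, 16 PCDHB and 22 PCDHG genes, the C-type genes included), 3 CELSR, 2 Dachsous (DCHS), 3 FAT (FAT2, FAT3 and FAT4), 3 desmocollin (DSC) and 4 desmoglein (DSG) genes. The mark measured was H3K27ac, the acetylated lysine of histone H3 found at active promoters and enhancers, profiled by CUT&RUN, in which an antibody-tethered nuclease releases the marked chromatin from cells. The cells were RPMI 8226, an established line from a multiple myeloma, a cancer of plasma cells. There were 4 groups of 3 libraries: CEBPB knockout cells given 10 µM dexamethasone, CEBPB knockout cells given DMSO vehicle, scramble control cells given 10 µM dexamethasone and scramble control cells given DMSO, each for 2 h. CEBPB encodes the transcription factor C/EBPβ and dexamethasone activates the glucocorticoid receptor; the study asked how loss of C/EBPβ bears on the enhancer response to the drug. The labels state neither how the knockout population was derived (clonal or pooled) nor the origin of the replicate libraries (1 culture or several), so p-values measure the spread between libraries, which may be technical.

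Classical cadherins bind the same cadherin on a neighbouring cell and are linked to actin through catenins; desmosomal cadherins (DSC and DSG) are linked to intermediate filaments through plakoglobin and plakins. The giant FAT, Dachsous and CELSR proteins set the polarity of cells within a tissue sheet, and clustered protocadherins, of which a neuron transcribes a few from alternative promoters, serve neuronal self-recognition. CDH2 encodes N-cadherin, the classical cadherin of neural and mesenchymal cells, which has also been described on myeloma cells, whereas CDH1 encodes E-cadherin of epithelia.

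The promoters of CDH2 and CDH26 are shown because a start of each gene carried a peak in libraries of 1 genotype only. These starts hold only part of the difference at either gene, as described below. They are RefSeq sequences of GRCh38.p14, 250 bases before to 50 bases after the gene start, written 5′ to 3′ along the gene, with CpG dinucleotides in capitals. CDH2 lies on the minus strand of chromosome 18. Its first start, chr18:28177081-28177380, holds 23 CpG, and an internal start, chr18:28036592-28036891, holds 4. CDH26 lies on the plus strand of chromosome 20. Its first start, chr20:59958173-59958472, holds 3 CpG, and its second listed start, chr20:59996124-59996423, holds 1.
CDH2 first start: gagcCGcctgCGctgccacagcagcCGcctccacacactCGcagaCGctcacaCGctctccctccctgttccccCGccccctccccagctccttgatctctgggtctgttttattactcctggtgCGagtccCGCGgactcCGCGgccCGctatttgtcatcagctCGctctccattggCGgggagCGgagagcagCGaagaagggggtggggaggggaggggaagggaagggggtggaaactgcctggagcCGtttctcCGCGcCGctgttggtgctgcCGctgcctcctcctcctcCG
CDH2 internal start: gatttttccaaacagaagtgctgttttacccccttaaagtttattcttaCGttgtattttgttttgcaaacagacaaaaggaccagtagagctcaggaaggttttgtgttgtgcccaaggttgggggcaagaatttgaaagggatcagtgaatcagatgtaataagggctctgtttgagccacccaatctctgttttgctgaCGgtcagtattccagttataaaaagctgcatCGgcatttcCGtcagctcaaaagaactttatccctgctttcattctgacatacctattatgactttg
CDH26 first start: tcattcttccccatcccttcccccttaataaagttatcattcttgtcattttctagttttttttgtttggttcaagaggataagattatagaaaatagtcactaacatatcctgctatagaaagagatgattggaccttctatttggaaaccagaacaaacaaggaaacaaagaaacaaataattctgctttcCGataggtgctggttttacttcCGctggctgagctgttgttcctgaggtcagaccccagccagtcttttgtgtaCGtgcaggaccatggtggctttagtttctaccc
CDH26 second start: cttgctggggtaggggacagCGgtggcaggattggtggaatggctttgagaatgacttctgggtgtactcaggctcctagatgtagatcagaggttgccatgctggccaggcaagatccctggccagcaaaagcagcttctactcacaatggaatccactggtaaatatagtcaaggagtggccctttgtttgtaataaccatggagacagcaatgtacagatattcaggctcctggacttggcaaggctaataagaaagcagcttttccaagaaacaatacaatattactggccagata

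At the first CDH2 start a peak covered at least 50 bp of the sequence in 6 of 6 knockout and 6 of 6 scramble libraries. At the internal CDH2 start this held in 0 of 6 knockout and 5 of 6 scramble libraries. At the second CDH26 start it held in 3 of 6 knockout and 0 of 6 scramble libraries. The first CDH26 start met this measure in no library of either genotype, although a peak just downstream of it is described below. The internal CDH2 start holds the letters TATAAA, the TATA-box core, 32 bases before the start, and TTGCAAAA on the opposite strand 189 bases before it, a match to TTGCNNAA, a core form of the C/EBP motif. Such a match is a description of these letters and was not tested as a binding site.

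RefSeq promoters could be matched for 77 of the 101 genes, 95 promoters in all. A promoter of 4 genes (CDH2, DSG2, CELSR3 and PCDH18), 5.19% of those matched, carried a peak in all 12 libraries, against a background of 54% of all genes in the promoter table. For 66 genes, 85.7%, no promoter carried a peak in any library, against 34.3% of all genes. Among the 66 were 13 PCDHA, 14 PCDHB and 19 PCDHG genes. The 95 promoters held fewer CpG than promoters at large, with a median of 8 against 21 over all genes, and a median GC content of 47.3% against 62.3%. Families differed. The median CpG was 7 in 13 PCDHA, 7.5 in 14 PCDHB and 10 in 25 PCDHG promoters. It was 6 in desmogleins, 7 in FAT, 9 in CDH and 11 in non-clustered protocadherin promoters. It was 18.5 in 4 desmocollin, 25 in 1 Dachsous and 30 in 2 CELSR promoters. Searched on both strands, TTGCNNAA was present in 12.6% of the 95 promoters and 8.69% of all promoters of that length. TATAAA was present in 10.5% and 9.46%, and ACANNNTGT, the spacing of a glucocorticoid receptor half-site pair, in 11.6% and 3.96%. Of the 11 promoters with ACANNNTGT, 7 were among the 13 matched PCDHA promoters, which belong to 1 cluster of related genes and are not independent.

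For each gene, the length covered by the authors' peaks was summed in each library over the gene and 25 kb on each side of it. Windows overlapped in places: the 101 genes formed 44 separate loci, and the PCDHG genes share 1 locus and nearly all of their peaks, so genes are not independent of each other. The libraries held 41164 to 56421 peaks covering 48.0 to 66.4 Mb; no read counts were listed and the depth of sequencing is unknown. Loci of the 101 genes together covered 140 to 179 kb in knockout libraries, 0.254 to 0.286% of the covered length, and 159 to 201 kb in scramble libraries, 0.300 to 0.342%. The shares of the 2 genotypes, which leave out related genes outside the symbol rule, did not overlap. Without the CDH4 and CDH2 loci, they were 0.247 to 0.279% in knockout and 0.236 to 0.270% in scramble libraries, and overlapped. H3K27ac at CEBPB itself covered 3.97 to 5.29 kb in knockout and 4.09 to 6.14 kb in scramble libraries (adjusted p = 0.32), a measure that does not check the deletion, since the mark can remain over a disrupted gene. All 10 plasma cell marker genes carried peaks in all 12 libraries, 5 of 7 stromal markers were listed at 0 in all, COL3A1 and DCN among them, and so were 3 of 5 neural markers, SOX2 among them. The summed level of the endothelial markers was 0.949 to 4.44 kb in knockout and 4.00 to 8.29 kb in scramble libraries, with KDR at 0 in all and 1 of the 5 called lower. The epithelial markers summed to 52.2 to 56.7 kb in knockout and 45.3 to 54.1 kb in scramble libraries; 7 of 8 were covered in all 12 libraries and 0 were called between genotypes averaged over treatments.

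Many of these genes had no listed H3K27ac peak in this line, which is not a measure of absent acetylation because depth is unknown. No peak lay in the window of 39 of the 101 genes in any library, where 10.3% of all protein-coding genes were so listed at 0: the 15 PCDHA and 16 PCDHB genes, CDH6, CDH10, CDH11, CDH20, PCDH7, PCDH8, PCDH17 and PCDH20. The 31 PCDHA and PCDHB genes form 1 locus, so the count by gene weighs that region 31 times. CDH11 encodes OB-cadherin, the cadherin of osteoblasts and fibroblasts. Peaks were present in all 12 libraries for 49 genes, 22 of them PCDHG genes of 1 locus, against 76.3% of all genes. The remaining 13 genes were covered in some libraries.

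The clustered protocadherins of chromosome 5 divided by cluster. The PCDHA and PCDHB windows were empty, whereas all 22 PCDHG windows, which share their downstream end, carried peaks in every library. These peaks were hardly at promoters. Of 20 PCDHG genes with a matched promoter, 19 had no promoter peak in any library, and PCDHGB2 had one in 1 knockout library. The windows reach 25 kb past the genes. Where in the locus the peaks lay, and which other genes the windows hold, was not described, so the peaks cannot be credited to PCDHG genes. PCDHGC3 covered 1.90, 2.35 and 2.30 kb in knockout cells given dexamethasone and 2.17, 1.50 and 4.46 kb in knockout cells given DMSO. It covered 2.30, 1.86 and 2.14 kb in scramble cells given dexamethasone and 1.75, 1.47 and 5.04 kb in scramble cells given DMSO. In each genotype 1 DMSO library stood above the other 5, and the genotypes overlapped. The windows of PCDHGA1, PCDHGA2 and PCDHGA3 reach further upstream and covered 3.47 to 6.52 kb in knockout and 2.86 to 6.48 kb in scramble libraries, more than PCDHGC3 in each library. No PCDHG gene passed the test between genotypes.

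The 10 windows with the highest covered share often held other genes, whose peaks are counted too. PCDH12, the endothelial protocadherin VE-cadherin-2, led with a median of 11.8% of its window, 6.62 to 9.49 kb, but its window also holds DELE1 and RNF14, and the gene span itself covered 2.12 to 2.28 kb in knockout and 1.91 to 2.19 kb in scramble libraries. CDH24 (11.6%), a type II cadherin, shares its window with the proteasome gene PSMB5. CDH16 (11.6%), kidney cadherin, shares its window with PDP2, CIAO2B, CES2 and RRAD, and its own span covered at most 1.71 kb in knockout and 1.46 kb in scramble libraries. PCDH1 (10.6%), an epithelial and airway protocadherin, had no other protein-coding gene in its window and covered 6.98 to 10.4 kb. Its own span covered 2.48 to 3.90 kb in knockout and 2.08 to 5.55 kb in scramble libraries. CDH15, the M-cadherin of muscle (9.34%), CELSR3 (9.02%), CDH26 (7.50%), CELSR1 (7.39%), CDH1 (5.87%) and DCHS1 (5.11%) completed the 10 highest. The CDH15 span covered at most 2.45 kb in knockout and 1.50 kb in scramble libraries, of 5.375 to 7.91 kb in its window. The CELSR3 span covered at most 2.755 kb in knockout and 2.53 kb in scramble libraries, of 5.37 to 10.1 kb in its window. Within its span DCHS1, a ligand of FAT4, covered at most 0.609 kb in knockout and 0.664 kb in scramble libraries, of 3.68 to 4.70 kb in its window.

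**Figure D1:**
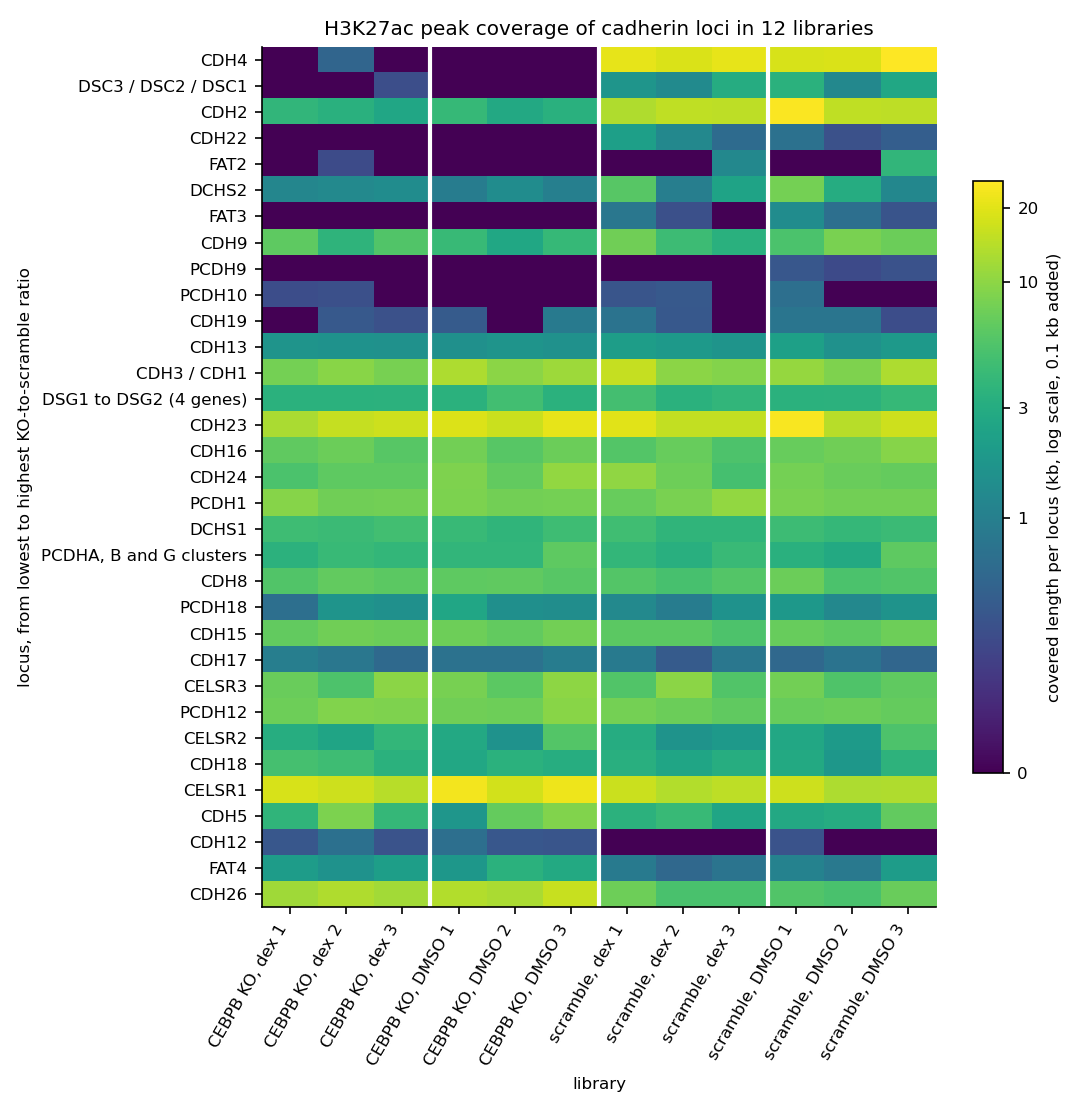
Covered length of each cadherin locus with a tested gene (rows, ordered by the ratio of knockout to scramble) in each of the 12 libraries (columns, knockout left of scramble); colour gives covered kb on a log scale with 0.1 kb added. CDH4 is dark in all but 1 knockout library and at 18.3 kb or more in every scramble library, while most rows hardly change between columns. The row labelled PCDHA, B and G clusters holds the 22 PCDHG genes alone. The PCDHA and PCDHB locus, with no peak and no tested gene, is not drawn.

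CEBPB knockout cells differed from scramble cells at 9 of the 59 genes tested, averaged over the treatments. Coverage fell at CDH4, CDH2, DSC3, CDH22 and FAT3, and rose at CDH26, FAT4, CDH12 and CELSR1. The test was limma on log2(covered bp + 500), quantile-normalised over the 12 libraries, with Benjamini-Hochberg adjustment over all 17155 genes that were covered in at least 3 libraries and a threshold of 0.05. Over all tested genes 15.1% were called, 8.1% higher and 6.96% lower, so that 9 of 59 is near the background when counted by gene. Of the 59, however, 22 are PCDHG genes of 1 locus, with 0 called. The 59 genes lie in 33 loci and the 9 called genes in 9 different ones. No background was computed for a count by locus. The median log2 difference of the 59 genes was -0.02, with -0.00038 over all tested genes. It is the same as the median of the 22 PCDHG genes, so it mostly describes that 1 locus. The median of the 18 tested CDH genes was -0.08. The groups of 6 did not overlap at 6 genes (CDH4, CDH2, DSC3, CDH22, CDH26 and CDH12), against 8.03% of all tested genes.

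CDH4, which encodes R-cadherin, the retinal classical cadherin, showed the widest separation. In knockout cells it covered 0, 0.509 and 0 kb with dexamethasone and 0 kb in all 3 DMSO libraries. In scramble cells it covered 20.9, 18.7 and 20.9 kb with dexamethasone and 18.3, 18.9 and 25.9 kb with DMSO. All 6 scramble libraries were far above the 6 knockout libraries. The log2 difference was -5.26 ± 0.16 (SE; adjusted p = 9.7e-10), a size that depends on the added 500 bp because 5 knockout libraries were at 0. The gene spans chr20:61252261-61940617, 688 kb on the plus strand, with no other protein-coding gene in its window. Merged over libraries, the peaks formed 18 segments found in at least 4 libraries. Of these, 17 were in no knockout library and at least 4 scramble libraries, and 13 were in all 6 scramble libraries. One of the 13, chr20:61252257-61253489, lay at the upstream end of the gene. The strongest peak reached a −log10 q of 12.3 to 17.2 in scramble libraries, within the highest 16.3 to 27.5% of each library's peaks by that value.

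CDH2 fell in knockout cells without emptying. It covered 3.78, 3.34 and 2.58 kb with dexamethasone and 4.07, 2.74 and 3.31 kb with DMSO in knockout cells. In scramble cells it covered 13.4, 15.1 and 15.0 kb with dexamethasone and 25.2, 15.2 and 15.0 kb with DMSO. The lowest scramble library was above every knockout library. The log2 difference was -2.18 ± 0.14 (adjusted p = 6.2e-07). The gene spans chr18:27932879-28177130. Outside the gene span, peaks in the window averaged 2.20 ± 0.45 kb in knockout and 2.25 ± 0.18 kb in scramble libraries (SD, n = 6 each). The segment over the first start, chr18:28175301-28178622, and one upstream of the gene, chr18:28200558-28202318, were present in all 12 libraries. Presence does not mean equal strength. The strongest peak of the window reached a −log10 q of 3.98 to 5.28 in knockout and 11.0 to 13.3 in scramble libraries. In scramble libraries that peak was the one over the first start, as no other segment passed 8.75. Another 11 segments, each in at least 4 libraries, were inside the gene and in no knockout library, and 7 of them were in all 6 scramble libraries. One of the 11, chr18:28036527-28038456, covers the internal start printed above and was found in 5 scramble libraries. Within the gene span, coverage was 0.692 to 1.44 kb in knockout and 11.3 to 22.8 kb in scramble libraries.

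DSC3 and DSC2 are desmocollins, desmosomal cadherins of stratified epithelium and of epithelia at large, side by side on chromosome 18. DSC3 was listed at 0 in all 6 knockout libraries, and covered 1.30, 1.32 and 1.34 kb with dexamethasone and 1.38, 1.24 and 1.26 kb with DMSO in scramble cells (adjusted p = 7.0e-07). The scramble values were tightly grouped. The coverage came from 1 segment, chr18:30987336-30988717, outside the gene, beyond its 3′ end, and present in 6 scramble libraries. No peak lay within the DSC3 span in any library. DSC2 was listed at 0 in all 6 knockout libraries too, and covered 0.406, 0 and 1.66 kb with dexamethasone and 2.05, 0 and 1.41 kb with DMSO in scramble cells. It did not pass the test (adjusted p = 0.10), 2 of the 6 scramble libraries being at 0. Its segment, chr18:31099566-31101753, merged over libraries, covers a RefSeq start of the gene. A peak covered at least 50 bp of that promoter in 3 of 6 scramble libraries. The 4 neighbouring desmogleins did not pass the test: DSG2, the desmoglein of simple epithelia, covered 2.91 to 2.96 kb in knockout and 2.92 to 4.26 kb in scramble libraries.

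CDH22 and FAT3 were also listed at 0 in all 6 knockout libraries, at lower scramble levels. CDH22, a cadherin of brain and pituitary, covered 2.23, 1.24 and 0.605 kb with dexamethasone and 0.697, 0.300 and 0.423 kb with DMSO in scramble cells (adjusted p = 0.00065). All 6 scramble libraries had peaks, but weak ones: the strongest in each reached a −log10 q of 0.811 to 2.42. Of the 4 merged segments, 1 was in at least 4 libraries. With every library trimmed to the same covered length the adjusted p was 0.14, and with 100 kb windows it was 0.97. FAT3, a giant cadherin of neurons, covered 0.807, 0.285 and 0 kb with dexamethasone and 1.41, 0.667 and 0.320 kb with DMSO in scramble cells (adjusted p = 0.042). One scramble library was at 0, and the call was kept in 2 of the 12 fits that left out 1 library, with an adjusted p of 0.011 to 0.10.

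CDH26, an epithelial cadherin that can bind leukocyte integrins, rose in knockout cells. It covered 11.6, 13.4 and 12.1 kb with dexamethasone and 13.6, 12.8 and 16.3 kb with DMSO in knockout cells. In scramble cells it covered 7.51, 5.18 and 5.18 kb with dexamethasone and 5.68, 5.16 and 7.25 kb with DMSO. The lowest knockout library was above the highest scramble library. The log2 difference was 1.05 ± 0.09 (adjusted p = 1.4e-05). The window also holds FAM217B, PPP1R3D and SYCP2, and part of the difference lay outside the gene, where peaks averaged 5.74 ± 1.19 kb in knockout and 3.44 ± 1.01 kb in scramble libraries (SD, n = 6 each). Within the gene, chr20:59958423-60035934, they covered 6.56 to 8.25 kb in knockout and 1.87 to 2.97 kb in scramble libraries. A segment whose extent, merged over libraries, includes the second start, chr20:59994804-59996538, was in 6 knockout and 0 scramble libraries. Its peak covered at least 50 bp of the second-start sequence in 3 of the 6 knockout libraries. A segment just downstream of the first start, chr20:59958504-59959203, was in 6 knockout and 1 scramble library.

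FAT4, the receptor of DCHS1, rose as well. It covered 2.07, 1.60 and 2.16 kb with dexamethasone and 1.81, 3.36 and 2.80 kb with DMSO in knockout cells. In scramble cells it covered 0.893, 0.548 and 0.758 kb with dexamethasone and 1.07, 0.843 and 2.07 kb with DMSO. One scramble DMSO library lay within the knockout range. The log2 difference was 0.86 ± 0.18 (adjusted p = 0.0084); with peaks of −log10 q of at least 2 alone it was 0.48 and did not pass (adjusted p = 0.17). A segment at the upstream end of the span, chr4:125313633-125315990, was in all 12 libraries, while a second, chr4:125321385-125323919, was in 6 knockout libraries and 1 scramble library.

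CDH12, a type II cadherin of brain, covered 0.351, 0.687 and 0.317 kb with dexamethasone and 0.659, 0.351 and 0.338 kb with DMSO in knockout cells. Of the scramble libraries, 1 DMSO library covered 0.316 kb and 5 were at 0. The log2 difference was 0.85 ± 0.18 (adjusted p = 0.0084). In knockout cells a single segment, chr5:21830928-21831636, carried it, in 6 of 6 libraries. The scramble peak lay elsewhere in the gene, and the lowest knockout library (0.317 kb) was barely above it. CELSR1, the planar polarity cadherin, covered 18.4, 17.0 and 14.2 kb with dexamethasone and 23.6, 17.8 and 22.5 kb with DMSO in knockout cells. In scramble cells it covered 16.7, 13.7 and 14.7 kb with dexamethasone and 16.8, 13.0 and 13.4 kb with DMSO. The genotypes overlapped; the log2 difference was 0.31 ± 0.08 (adjusted p = 0.029), and the call was kept in 4 of the 12 fits that left out 1 library, with an adjusted p of 0.017 to 0.067.

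**Figure D2:**
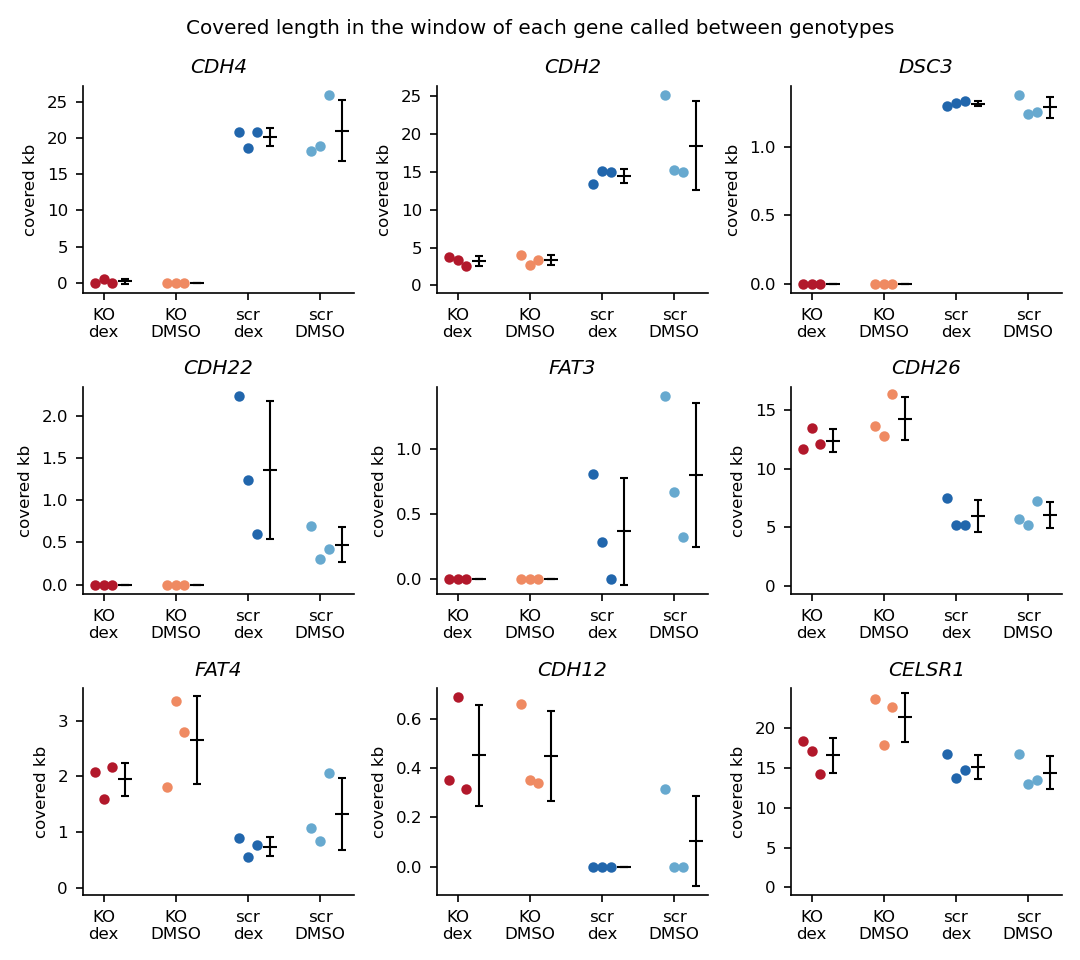
Covered kb per library (points) with the mean and SD of 3 libraries (black) for the 9 genes called between genotypes, in knockout (red) and scramble (blue) cells under dexamethasone and DMSO. CDH4, DSC3, CDH22 and FAT3 are at or near 0 in knockout cells, and CDH26 is at 11.6 kb or more in every knockout library and 7.51 kb or less in every scramble library.

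**Figure D3:**
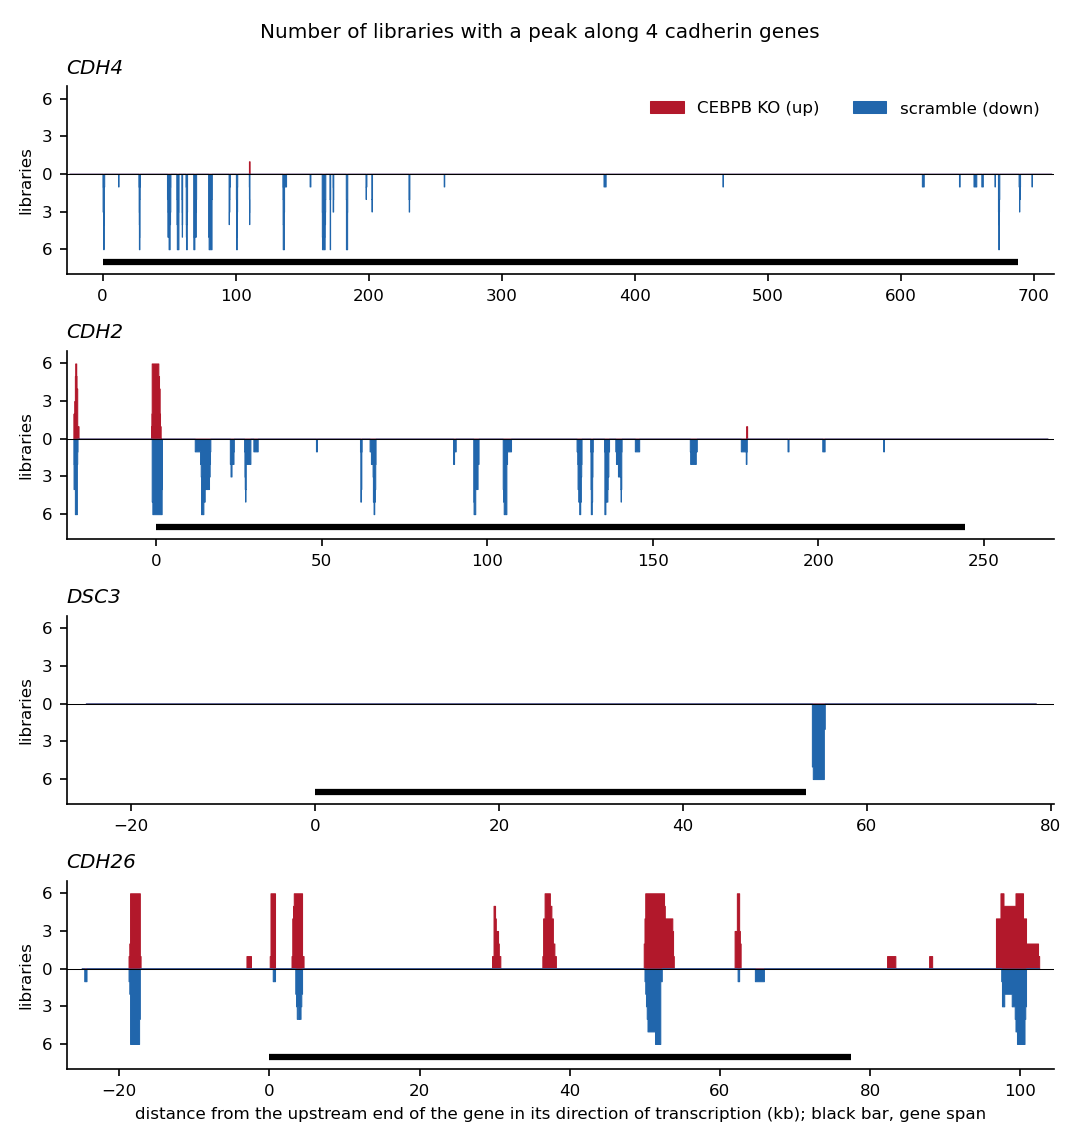
Number of libraries with a peak at each position along 4 genes, for 6 knockout libraries (upwards, red) and 6 scramble libraries (downwards, blue); the horizontal axis is the distance in kb from the upstream end of the gene and the black bar is the gene span. In CDH2 the segment at 0 kb is in 6 knockout and 6 scramble libraries while the segments found inside the gene are mostly in scramble libraries.

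Taken by 500 bp bins, gene windows held 888 bins present in any library, a bin being present when at least 250 bp were covered. Bins lost, that is present in all 6 scramble and no knockout library, numbered 32, 3.60% of them, against 0.889% over the genome. CDH4 held 23, CDH2 6, DSC3 2 and DCHS2 1. Bins gained, present in all 6 knockout and no scramble library, numbered 7, 0.788%, against 0.651% over the genome: CDH26 held 5, DCHS2 1 and CELSR1 1. Most of the loss was therefore in 2 genes. DCHS2, a Dachsous cadherin, covered 0.925 to 1.39 kb in knockout and 0.972 to 8.06 kb in scramble libraries and did not pass the test (adjusted p = 0.087).

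Calls differed little in number between treatments. Under dexamethasone 6 genes were called between knockout and scramble: CDH26 and CDH12 higher and CDH4, DSC3, CDH2 and CDH22 lower; of all tested genes 7.62% were called, 4.25% higher and 3.38% lower. Under DMSO 5 were called: CDH26 and CELSR1 higher and CDH4, CDH2 and DSC3 lower; of all tested genes 7.32% were called, 3.78% higher and 3.54% lower. CDH26 had a log2 difference of 0.96 ± 0.13 under dexamethasone (adjusted p = 0.00086) and 1.13 ± 0.13 under DMSO (adjusted p = 0.00023). CDH2 had -2.09 ± 0.19 under dexamethasone (adjusted p = 3.6e-05) and -2.27 ± 0.19 under DMSO (adjusted p = 1.8e-05). CDH22 passed under dexamethasone (adjusted p = 0.0010) and not under DMSO (adjusted p = 0.15), which does not show that the treatments differ. The CDH12 call under dexamethasone (adjusted p = 0.044) was kept in 2 of 12 fits that left out 1 library, with an adjusted p of 0.026 to 0.15. The 3 libraries of each genotype did not overlap at 13 genes under dexamethasone, against 26.6% of all tested genes, and at 11 under DMSO, against 22.2%.

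**Figure D4:**
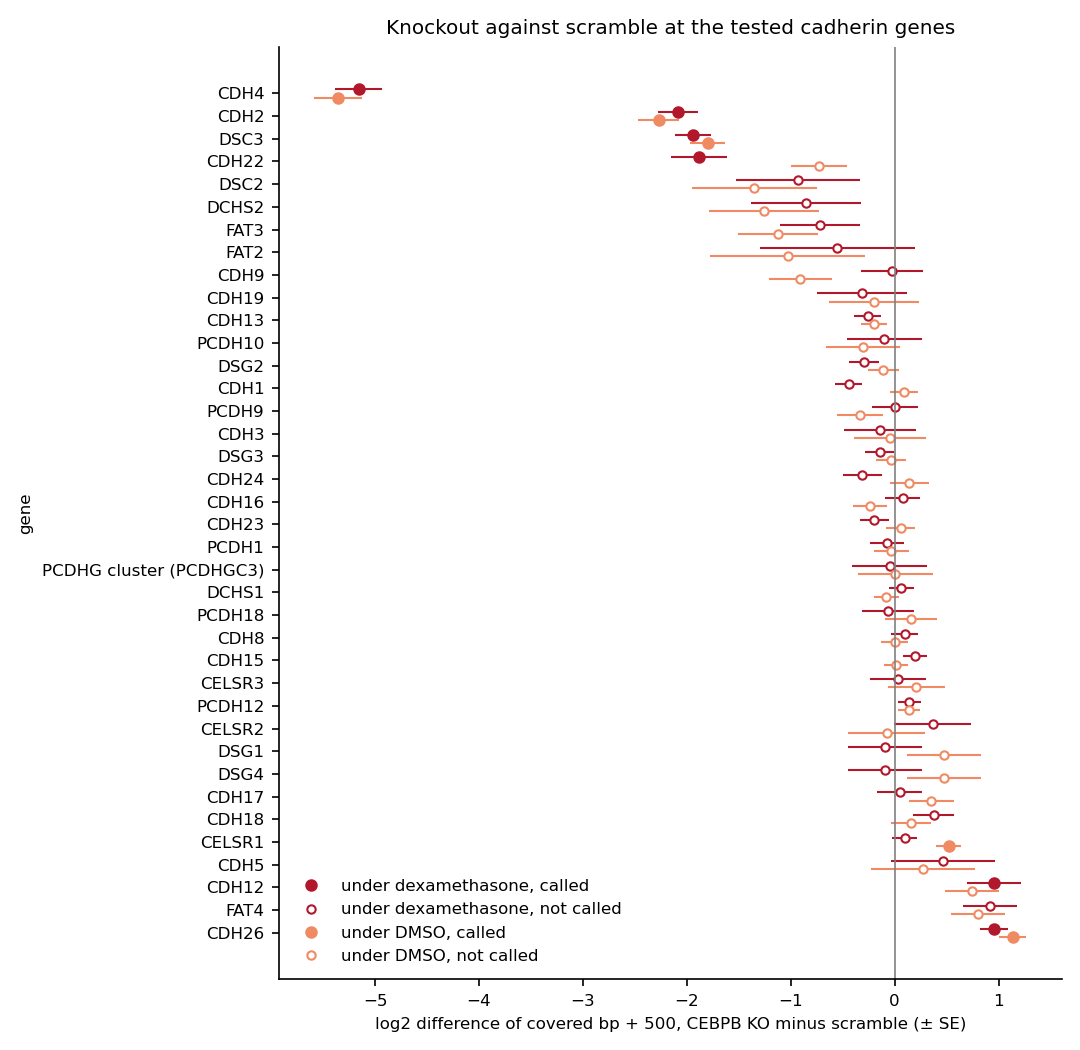
Log2 difference of covered bp + 500 between knockout and scramble cells (horizontal axis, with SE) for each tested gene, under dexamethasone (dark red) and DMSO (orange); filled points passed an adjusted p of 0.05, and the PCDHG cluster is shown by PCDHGC3. CDH4, CDH2 and DSC3 lie far left and CDH26 right under both treatments, and most genes lie near 0.

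Neighbouring genes moved with some of these genes, and chromosome-wide shares differed between genotypes. Neighbours were counted where their own windows shared no base with that of the gene. Of the 9 such tested genes within 3 Mb of CDH2, 1 was called higher and 4 lower, with a median log2 difference of -1.14; AQP4 and CHST9 were among the lower. Of the 81 around CDH4, 3 were called higher and 24 lower, with a median of -0.30, while CDH4 itself was at -5.26. Of the 48 around CDH26, 0 were called higher and 13 lower, with a median of -0.34, opposite in sign to CDH26 itself. Of the genes whose windows overlap that of CDH26 and share its peaks, FAM217B and PPP1R3D were called higher, each with a log2 difference of 0.86 ± 0.12 (adjusted p = 0.00061), and SYCP2 did not pass (adjusted p = 0.89). TAF4, whose window overlaps that of CDH4, was called lower (-1.04 ± 0.20, adjusted p = 0.0045). Around DSC3, of 15 genes 1 was called higher and 1, CDH2, lower.

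Chromosome 18 took 2.36 to 2.52% of the covered length in knockout and 1.93 to 2.05% in scramble libraries, so CDH2 and DSC3 were lower on a chromosome whose share was higher. Chromosome 20 took 2.61 to 2.68% in knockout and 3.06 to 3.14% in scramble libraries, in the direction of CDH4 and CDH22 and against that of CDH26. On chromosome 20, 12 tested genes were called higher and 73 lower of 474, and on chromosome 18, 73 higher and 11 lower of 233. Chromosome 4, with FAT4, took 2.72 to 3.02% in knockout and 3.10 to 3.38% in scramble libraries. Chromosome 5, with CDH12 and the clustered protocadherins, took 5.06 to 5.25% in knockout and 5.45 to 5.93% in scramble libraries. The part of these regional and chromosome-wide values in the results for single genes was not tested.

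**Figure D5:**
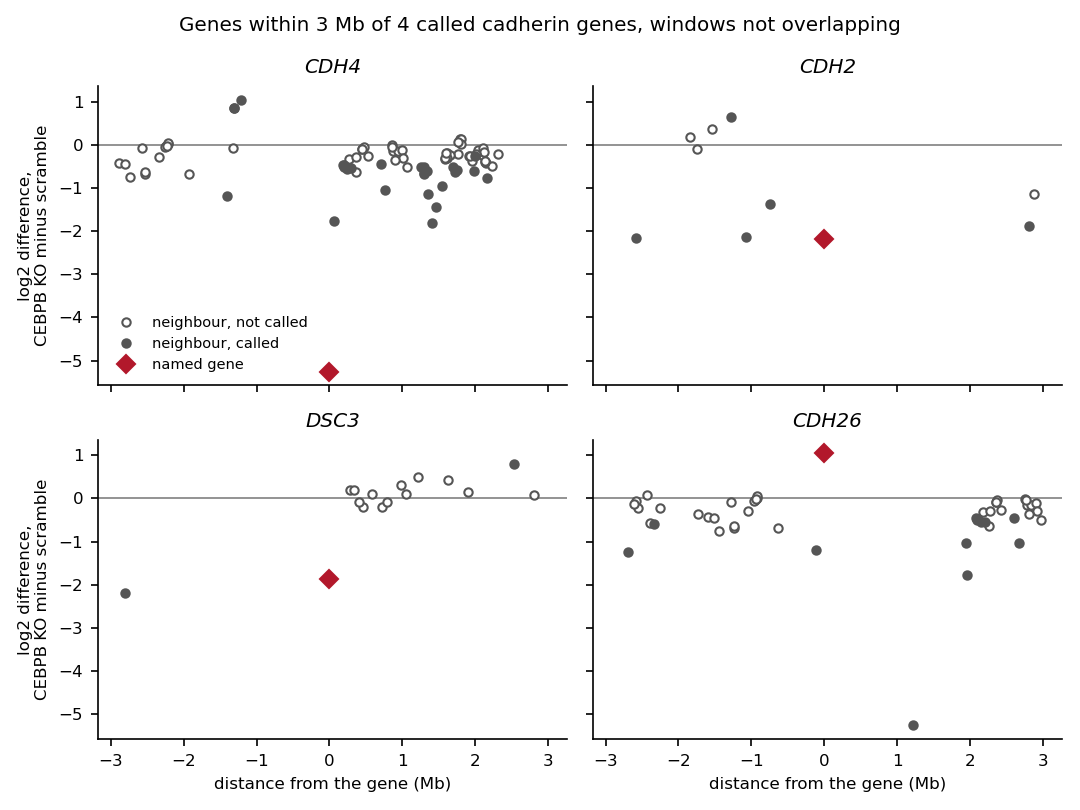
Log2 difference between knockout and scramble cells, averaged over treatments, of each tested gene within 3 Mb whose window does not overlap that of the named gene (grey; filled where called) against its distance in Mb from CDH4, CDH2, DSC3 or CDH26 (red diamond, the gene named above each panel). CDH4 lies below all neighbours drawn, and CDH26 lies above all neighbours drawn, CDH4 being the lowest of them.

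Dexamethasone called none of the 59 tested genes at an adjusted p of 0.05 in limma. In knockout cells 0 of 59 were called against DMSO (0.0175% of all tested genes were called), with 2 at an unadjusted p under 0.05. In scramble cells 0 of 59 were called (0.0233% of all), with 1 at an unadjusted p under 0.05. The 3 libraries of each treatment did not overlap at 2 genes in knockout cells (12.7% of all) and at 3 in scramble cells (11% of all). In scramble cells CDH22 had the smallest p (unadjusted p = 0.0012 and adjusted p = 0.23 in limma); it covered 2.23, 1.24 and 0.605 kb with dexamethasone against 0.697, 0.300 and 0.423 kb with DMSO, and the lowest dexamethasone library was below the highest DMSO library. In knockout cells CDH18, a type II cadherin of brain, covered 4.93, 4.57 and 3.36 kb with dexamethasone against 2.73, 3.39 and 3.08 kb with DMSO, a log2 difference of 0.49 ± 0.19 that did not pass (adjusted p = 0.69). CDH9, PCDH18 and CDH24 likewise did not pass in knockout cells.

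The drug response differed between genotypes at 0 of 59 genes by the interaction term (0.0117% of all tested genes were called), with 3 at an unadjusted p under 0.05: CDH22, CDH1 and CELSR1. CDH1 covered 6.49, 8.04 and 7.67 kb with dexamethasone against 10.8, 8.86 and 10.3 kb with DMSO in knockout cells, groups that did not overlap. In scramble cells it covered 13.0, 8.87 and 8.32 kb with dexamethasone against 10.2, 8.19 and 8.56 kb with DMSO, which overlapped. The interaction was -0.53 ± 0.19 on the log2 scale (adjusted p = 0.83). For CELSR1 the interaction was -0.43 ± 0.17 (adjusted p = 0.89).

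Genes that work with cadherins showed scattered changes, and their lists are given by counts, to be read against the 15.1% of all tested genes called (8.1% higher and 6.96% lower). Of 15 catenins and plakins, all tested, 2 were called higher and 3 lower in knockout cells averaged over treatments, with a median log2 difference of -0.04 against -0.00038 over all tested genes. CTNNA3, an alpha-catenin, covered 18.1 to 28.0 kb in knockout and 36.0 to 67.4 kb in scramble libraries (log2 difference -0.65 ± 0.11, adjusted p = 0.0023), and the 2 genotypes did not overlap. CTNNA1, the main alpha-catenin of epithelia, and PKP4, a plakophilin-family protein, were also lower, whereas JUP (plakoglobin) and EVPL (envoplakin) were higher.

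Of 15 adherens junction partners, 14 were tested, and 5 were called higher and 2 lower, where 8.1% and 6.96% of all tested genes were (median 0.11). PLEKHA7, an adherens junction scaffold, covered 17.7 to 22.8 kb in knockout and 12.1 to 16.9 kb in scramble libraries (log2 difference 0.39 ± 0.07, adjusted p = 0.0019). The actin cross-linkers ACTN1 and ACTN4 and the protease ADAM10, which sheds cadherin ectodomains, were among the others called higher; AFDN (afadin) and TJP1 (ZO-1) were lower. Of 9 repressors of E-cadherin 7 were tested, 0 called higher and 1 lower, SNAI1, which covered 1.49 to 2.41 kb in knockout and 1.79 to 3.23 kb in scramble libraries (log2 difference -0.49 ± 0.14, adjusted p = 0.033); it too lies on chromosome 20.

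Of 11 regulators of the protocadherin clusters, all tested, 2 were called higher and 0 lower, near the 15.1% of all tested genes called: RAD21, a cohesin subunit, and SMCHD1, which represses the clustered genes in mouse. SMCHD1 covered 7.47 to 15.7 kb in knockout and 5.08 to 7.50 kb in scramble libraries (log2 difference 0.77 ± 0.13, adjusted p = 0.0018) and lies on chromosome 18. Of 13 genes of the Fat and Dachsous pathway 11 were tested, 0 called higher and 1 lower (WWC1, the scaffold KIBRA), and YAP1 and LATS2 were listed at 0 in all libraries. Of 11 planar polarity partners of CELSR, all tested, 2 were called higher and 0 lower, likewise near 15.1%: FZD6, a Frizzled receptor, and PRICKLE2. PRICKLE2 covered 5.54 to 9.34 kb in knockout and 0 to 1.26 kb in scramble libraries (log2 difference 3.08 ± 0.25, adjusted p = 6.9e-06).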

How the data were processed

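H3K27ac CUT&RUN was done in 12 RPMI 8226 libraries, 3 per group of CEBPB knockout or scramble cells given dexamethasone or DMSO. The authors aligned reads with Bowtie2 2.4.2 to hg38 and called peaks with MACS3 3.0, per the submitters' processing notes; a control library is not given in the sources used here. The authors deposited broad peaks per library with start and end positions, a score, a fold enrichment ratio, and −log10 p and −log10 q values; the lists hold no read counts, so depth is unknown.

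Peaks on chromosomes 1 to 22 and X were merged within a library and summed over RefSeq gene spans with 25 kb on each side, so windows of long genes are long and windows overlap. Genes covered in at least 3 libraries entered a limma 3.58.1 fit in R 4.3.3, with its trend and robust options, on quantile-normalised log2(bp + 500), all 12 libraries in 1 fit; the fits were tested on simulated data. Adding 500 bp understates differences at low genes, and a covered length does not measure signal height. The members and lists were chosen with earlier results of these data known. Named genes were chosen from those called, the 5 of smallest p per direction, the 10 of highest covered share, and those at 0 in 1 genotype and covered in at least 4 libraries of the other. CDH17, CDH23 and CELSR2 also met the rule on smallest p without being called, and their values are not given. Other windows, peak thresholds, offsets, normalizations, filters, fit options, a replicate block and leaving out each library were tried. No genome was used, so exons and introns are not annotated. Library titles print no replicate number, and the numbers used here follow the order of the libraries within a group. Deviations of libraries with the same number had correlations between -0.08 and 0.10. As the numbers were assigned by order, this cannot show whether libraries were paired.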

Additional observations from a re-analysis of the deposited data

How the results depend on the processing

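CDH4, CDH2, DSC3 and CDH26 were called between genotypes, averaged over treatments, in every alternative that tested them. With 100 kb windows the called genes numbered 15 averaged over treatments (5 higher and 10 lower), 8 under DMSO and 10 under dexamethasone; these windows also tested more genes, 70. With no filter on genes 1 gene, PCDH9, was called for dexamethasone in scramble cells and 1, PCDH9 again, in the interaction. PCDH9 was also tested in the main fit and not called there. It covered 0.350, 0.252 and 0.307 kb in scramble cells given DMSO and 0 kb in every other library, in a window of 978 kb. Lost bins numbered 56 with any covered base and 20 with peaks of −log10 q of at least 2. FAT4 was not called with those peaks alone (log2 difference 0.48, adjusted p = 0.17), nor CELSR1 in 14 of 24 alternatives. Reversed signs, all of differences that were not called, were DCHS1 for dexamethasone in knockout cells with the gene span alone (-0.33, chosen after seeing the data), PCDH12 there with 5 kb windows (-0.056) and strong peaks (-0.044), CDH4 there with 100 kb windows (-0.59), CDH16 for dexamethasone in scramble cells with 100 kb windows (0.057), CDH16 and CDH15 in the interaction with strong peaks (-0.12 and -0.24), and CDH15 for knockout under dexamethasone with 100 kb windows (-0.032); the cause was not tested. With the replicate number as a block 9 genes were called averaged over treatments, 5 under DMSO and 5 under dexamethasone, CDH12 being lost there (adjusted p = 0.061); libraries share no more than that number. Unknown depth limits every statement on an absent peak: a gene listed at 0 had no peak past the authors' threshold.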

Other observations

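Cadherin-related genes outside the symbol rule included 1 with a wide separation, chosen here after its values were seen. CDHR1, the photoreceptor cadherin-related gene at chr10:84194537-84219621, covered 11.8, 10.4 and 11.4 kb with dexamethasone and 10.5, 9.77 and 12.7 kb with DMSO in knockout cells, and was listed at 0 in all 6 scramble libraries (limma on all genes, adjusted p = 2.1e-11). Its peaks formed 7 segments, 5 of them in all 6 knockout and no scramble library, and within the gene span they covered 4.09 to 6.46 kb in knockout libraries and 0 kb in scramble libraries. The window also holds GPR15LG, LRIT1 and LRIT2.

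RET, a receptor kinase with cadherin-like domains on the same chromosome, covered 7.81 to 12.7 kb in knockout and 3.52 to 6.60 kb in scramble libraries, with a log2 difference of 0.94 (adjusted p = 0.0026). CDHR2, an intestinal brush border cadherin, covered 5.77 to 7.92 kb in knockout and 8.08 to 12.6 kb in scramble libraries (log2 difference -0.57, adjusted p = 0.0093), and the 2 genotypes did not overlap. CDHR3, an airway cadherin, covered 0.792 to 2.11 kb in knockout and 2.01 to 3.51 kb in scramble libraries (log2 difference -0.69, adjusted p = 0.030). PCDH19 was listed at 0 in all 12 libraries. CLSTN1, a calsyntenin, covered 8.70 to 12.2 kb in knockout and 10.0 to 12.2 kb in scramble libraries and did not pass the test (adjusted p = 0.47).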
